A study of Saccharomyces cerevisiae with 45 samples.

Results

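The genes described here encode the enzymes of budding yeast (Saccharomyces cerevisiae) that phosphorylate glucose as it enters the cell: the hexokinases HXK1 and HXK2, the glucokinase GLK1, and EMI2, the paralogue of GLK1. They were chosen by name, and each is read by 1 probe set of the array, so 4 of the 5449 genes measured are covered. Total RNA came from strain BY4147, labelled MATa with his3D1, leu2D0, met15D0 and ura3D0, and all groups share this genotype. Cells grew in YPD, a rich medium with glucose, and were kept at 25 °C or held in a water bath at 37, 42 or 46 °C. The arrays used here were 3 of unheated cells at 25 °C (batch A863), 3 at each of 1, 3, 5, 7, 10, 15 and 40 min at 37 °C (A863) and 3 at 80 min (A705). A further 2 were of unheated cells (A927), 2 each came from 3, 5, 10 and 40 min at 42 °C (A927), and 2 each from 10 and 30 min at 46 °C (P230). The 4 arrays labelled 42 °C 1 and 80 min (A961) were left out of all comparisons. Replicates among those 4 correlated as low as 0.612, and their values stand in the closing section. The labels do not state that replicates came from different cultures, and the p-values reflect only how far arrays of 1 group differ, possibly for technical reasons.

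Hexokinases and glucokinases transfer a phosphate from ATP to glucose, which commits the sugar to glycolysis, the pentose phosphate pathway or storage as trehalose and glycogen. HXK1 and HXK2 encode closely related hexokinases that also accept fructose, whereas the GLK1 product does not. HXK2 is the main form during growth on glucose and also acts in glucose repression together with the repressor Mig1, while HXK1 and GLK1 are known to be held low by glucose and raised by stress. Trehalose 6-phosphate, the intermediate of trehalose synthesis, inhibits the hexokinases.

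All values are log2 intensities, on which a difference of 1 is a 2-fold difference. The deposited values fell into 3 sets of arrays with separate distributions, whose array medians were 10.20 to 10.26 (A863 and A705), 10.12 to 10.20 (A927 and A961) and 9.85 to 9.86 (P230). Tests were therefore made within a set, and levels from different sets are described without a test. Signal at probe sets without a target in this strain reached 5.44, 5.63 and 4.59 in the 3 sets (95th percentile), and all values of the 4 genes lay well above that. Replicate arrays correlated at 0.991 to 0.999 across all probe sets. URA3, LEU2 and MET17 (the met15 locus), deleted in the labelled genotype, read at most 5.34, 5.93 and 5.44, and HIS3 read 10.27 to 12.38, which checks nothing if its probes lie outside the part removed in his3D1. Of the mating type markers, the a-cell gene STE2 read 10.34 to 13.60, and MFA1, MFA2 and BAR1 read at least 11.15, 11.25 and 9.99. STE6 and AGA2 had medians of 11.43 and 10.90 but read as low as 7.97 and 7.81. The alpha-cell genes MF(ALPHA)1, MF(ALPHA)2 and STE3 read at most 6.57, 6.99 and 8.45, while SAG1 read 8.37 to 9.53. The lowest STE6 and AGA2 readings thus lay below those of SAG1. The words rose and fell are used for changes of 2-fold or more whose p, adjusted over all genes by Benjamini-Hochberg in limma, was below 0.05.

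In the 37 °C series HXK1, GLK1 and EMI2 rose within 3 min and were highest at 15 min, at 21.4, 9.90 and 7.95 times the 25 °C level. HXK2 differed from its control by -0.10 to -0.03 on the log2 scale up to 15 min and by -0.44 at 40 min. From 1 to 80 min, 0, 3, 3, 3, 3, 3, 2 and 2 of the 4 genes were past the test as higher, where 0.0367, 1.93, 5.6, 7.87, 12, 15.3, 7.08 and 5.65% of all genes were. As lower 0 of the 4 were past it at each time, where 0.202, 1.32, 5.95, 8.15, 11.9, 14.3, 7.21 and 2.31% of all genes were.

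**Figure D1:**
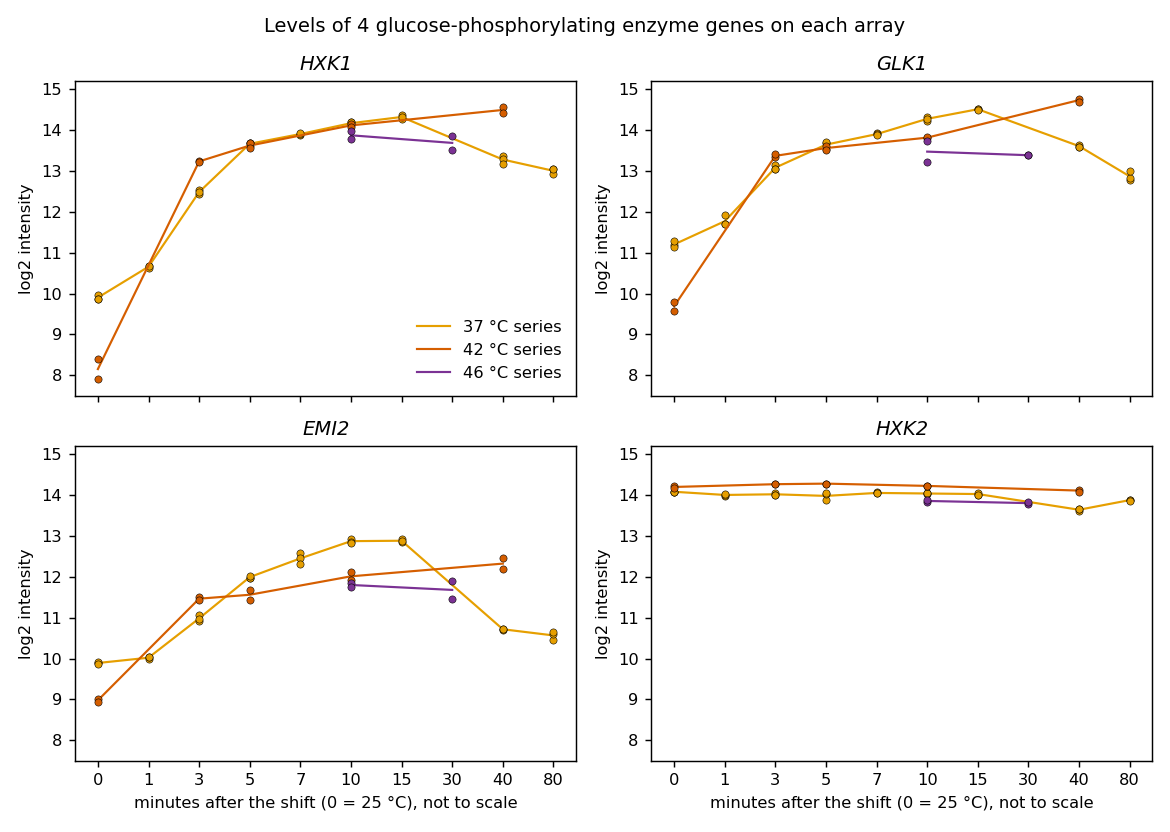
Log2 intensity of HXK1, GLK1, EMI2 and HXK2 on each array (points) and group means (lines) against minutes after the shift, with the 25 °C control of the 37 °C and of the 42 °C series at 0. HXK2 stayed between 13.60 and 14.28 on all arrays shown, while the other genes started from different 25 °C levels in the 2 series; the 37 °C 80 min arrays are of batch A705, and the 46 °C arrays have no control of their own.

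HXK1 (YFR053C, chromosome VI, positions 253592 to 255049 of the R64 assembly, protein-coding) gave the widest response of the 4. The 3 control arrays read 9.96, 9.88 and 9.87. After 1 min at 37 °C they were 10.68, 10.62 and 10.67, all above the control, a difference of 0.75 ± 0.08 (SE of the fit, limma's adjusted p = 5.37e-08) that did not reach 2-fold. At 3 min HXK1 read 12.52, 12.45 and 12.48 and had risen by 2.58 ± 0.08 (adjusted p = 4.36e-22 by limma). HXK1 then read 13.68, 13.62 and 13.69 at 5 min and 14.28, 14.37 and 14.31 at 15 min, where the rise was 4.42 ± 0.08. Between 15 and 40 min the gene fell by 1.04 ± 0.08, to 13.37, 13.29 and 13.17, and in that step 2 of the 4 genes and 6.96% of all genes fell. Without the third array of 40 min the HXK1 step was -0.99, below 2-fold, and with all 45 arrays in the fit it no longer passed (limma's adjusted p = 0.0943), which leaves EMI2 alone. The groups of neighbouring rank did not overlap anywhere in this series, and at 40 min HXK1 still held 76.4% of its 15 min change on the log2 scale. At 80 min it read 13.05, 12.92 and 13.04, which is 3.10 ± 0.08 above the control. Among all 5449 genes the change of HXK1 ranked 17 from the highest at 40 min and 38 at 15 min.

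GLK1 (YCL040W, chromosome III, 50838 to 52340) was also highest at 15 min and lower again at 40 and 80 min. Its control arrays read 11.18, 11.14 and 11.28, and those of 1 min 11.92, 11.69 and 11.70, a difference of 0.57 ± 0.08 (limma's adjusted p = 9.90e-06) below the 2-fold limit. At 3 min GLK1 read 13.15, 13.04 and 13.05 and had risen by 1.88 ± 0.08 (limma's adjusted p = 2.90e-18). The highest values, 14.52, 14.51 and 14.50, came at 15 min, a rise of 3.31 ± 0.08. At 40 min the arrays read 13.64, 13.59 and 13.59, within the range of those at 5 min (13.53, 13.69 and 13.72). The drop from 15 to 40 min was 0.90 ± 0.08 and just missed the 2-fold limit. At 80 min GLK1 read 12.78, 12.82 and 13.00, which left a rise of 1.67 ± 0.08 over the control.

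EMI2 (YDR516C, chromosome IV, 1474974 to 1476476), the paralogue of GLK1, reached 2-fold at 3 min and was back below 2-fold by 40 min. The control arrays read 9.89, 9.92 and 9.87 and the 1 min arrays 9.99, 10.04 and 10.04, a difference of 0.13 ± 0.08 that did not pass the test (limma's adjusted p = 0.324). At 3 min EMI2 read 11.07, 10.92 and 10.96, a rise of 1.09 ± 0.08 (adjusted p = 1.96e-12 by limma). It reached 12.94, 12.85 and 12.84 at 10 min and 12.86, 12.92 and 12.87 at 15 min, and these 2 times overlapped. From 15 to 40 min EMI2 fell by 2.17 ± 0.08 (limma's adjusted p = 6.71e-21), to 10.69, 10.72 and 10.74. What remained was 0.83 ± 0.08 above the control at 40 min and 0.67 ± 0.08 at 80 min, where the arrays read 10.44, 10.61 and 10.65, both past the adjusted p limit and both below 2-fold.

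**Figure D2:**
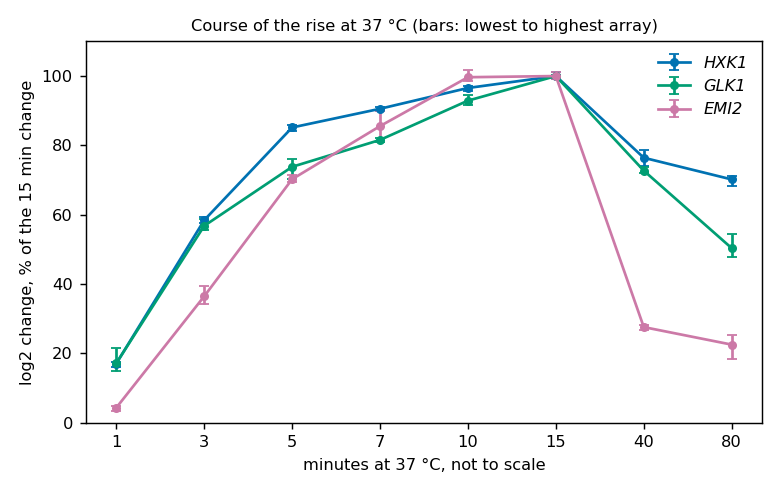
Mean log2 change from 25 °C at each time at 37 °C, as a percentage of the gene's own change at 15 min, with bars from the lowest to the highest array. EMI2 stood at 36.5% at 3 min where HXK1 and GLK1 stood at 58.4% and 56.8%, and at 27.6% at 40 min where they stood at 76.4% and 72.7%.

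The 3 genes thus differed in course as well as in size, as the plot of the course at 37 °C shows. At 3 min the EMI2 arrays stood at 34.4 to 39.3% of their 15 min change, and those of HXK1 and GLK1 at 57.6 to 59.3% and 55.6 to 58.8%. HXK1 and GLK1 were apart at 5 min, with arrays at 84.2 to 85.8% and 70.2 to 76.1%. At 40 min the arrays stood at 26.8 to 28.2% for EMI2, 73.9 to 78.6% for HXK1 and up to 73.8% for GLK1. At 80 min HXK1 was at 70.2%, GLK1 at 50.4% and EMI2 at 22.5%. Within each array, EMI2 minus GLK1 differed from the control by -0.44 ± 0.16 (SD, n = 3) at 1 min, -0.79 ± 0.02 at 3 min, -0.09 ± 0.02 at 10 min, -0.32 ± 0.04 at 15 min and -1.58 ± 0.05 at 40 min. The paralogues were thus apart at 3 min, closest at 10 min and farthest apart at 40 min. HXK1 minus GLK1 lay 1.11 ± 0.05 (SD, n = 3) above the control at 15 min, and 0.97 ± 0.08 above it at 40 min. These shares and differences are descriptions and carry no test.

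HXK2 (YGL253W, chromosome VII, 23935 to 25395) was read near the top of the scale and hardly moved. Its control arrays read 14.09, 14.08 and 14.08, where the brightest probe sets of these arrays read 14.96 to 15.04. At 15 min they read 14.01, 14.05 and 14.01, a difference of -0.06 ± 0.04 with a 95% interval of -0.13 to 0.02 (limma's adjusted p = 0.148). At 40 min they read 13.60, 13.66 and 13.66, below all other arrays of the 37 °C series, and the difference of -0.44 ± 0.04 passed the adjusted p limit (limma's adjusted p = 2.66e-12) but not the 2-fold one. At 5 min the difference of -0.10 ± 0.04 also passed the adjusted p limit alone (limma's adjusted p = 0.0152), and without the first of those arrays, which read 13.87, it was -0.05. At 80 min HXK2 read 13.88, 13.89 and 13.86, 0.20 ± 0.04 below the control. The change in HXK1 relative to HXK2 on the same array was 4.47 ± 0.03 (SD, n = 3) at 15 min and 3.82 ± 0.13 at 40 min, or 22.2-fold and 14.1-fold. For GLK1 relative to HXK2 it was 3.36 ± 0.03 and 2.85 ± 0.06, and for EMI2 3.05 ± 0.01 and 1.27 ± 0.01. At 15 min the readings of HXK1, GLK1 and EMI2 relative to HXK2 thus changed through those 3 genes, while at 40 min the lower HXK2 reading of 0.44 was part of each difference. Changes at such bright probe sets may be understated. The same limit holds for HXK1 and GLK1 at their highest, with means of 14.32 and 14.51 at 15 min. After 40 min at 42 °C their means were 14.49 and 14.73. It reaches their largest changes and the shares and differences taken from them, while EMI2 had a mean of 12.88 at 15 min. Since RMA sets the arrays to a common distribution, a fall shared by most transcripts would not be seen.

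The 80 min arrays are of another batch than their control, so batch and time cannot be told apart there. For the actin gene ACT1 the probe sets at the 3' and 5' ends, whose difference grows as RNA or its copies get shorter, lay 0.92 ± 0.08 (SD, n = 3) apart in that group, 0.61 ± 0.03 at 40 min and 0.52 ± 0.01 in the control. The part of this difference in the values of the 4 genes was not tested.

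At 42 °C HXK1, GLK1 and EMI2 were again raised at the first time measured, 3 min, by 33.8, 12.8 and 5.61 times, and were highest at 40 min, at 81.0, 33.0 and 10.2 times the control. The means of all 3 genes were higher at each later time. HXK2 differed from its control by -0.09 to 0.08. At 3, 5, 10 and 40 min 3 of the 4 genes rose, against 5.21, 8.48, 13.1 and 23.3% of all genes, and 0 fell, against 3.82, 6.83, 12.5 and 22.4%.

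**Figure D3:**
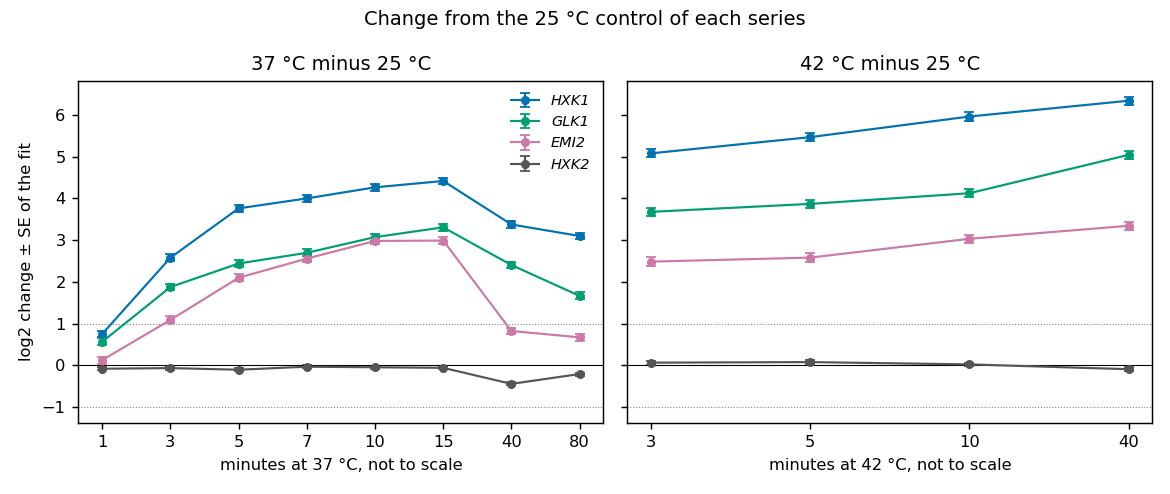
Log2 change from the 25 °C control of the same series with the standard error of the fit, at 37 °C (left) and 42 °C (right), with dotted lines at the 2-fold limits. HXK1 reached 4.42 at 37 °C and 6.34 at 42 °C and HXK2 stayed inside the limits throughout; the 2 panels use different controls.

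For HXK1 the 25 °C arrays of this series read 8.40 and 7.91, a wider gap between replicates than for the other members. At 3 min they read 13.25 and 13.22, a rise of 5.08 ± 0.10 (limma's adjusted p = 4.47e-28), which ranked 12 from the highest of all genes. The values went on to 13.67 and 13.57 at 5 min, 14.14 and 14.09 at 10 min and 14.57 and 14.42 at 40 min, with no overlap between successive times. Each of these later steps was below 2-fold, at 0.39 ± 0.10, 0.49 ± 0.10 and 0.38 ± 0.10. By 3 min HXK1 had made 80.1% of its 40 min change. The 58.4% at 3 min at 37 °C was of a 15 min change and from another control, so the 2 shares do not compare speed.

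GLK1 read 9.80 and 9.58 in the control and 13.34 and 13.40 at 3 min, a rise of 3.68 ± 0.10 (limma's adjusted p = 3.62e-24). It read 13.61 and 13.51 at 5 min, 13.81 and 13.82 at 10 min and 14.77 and 14.70 at 40 min. The last step, 0.92 ± 0.10 from 10 to 40 min, was the largest of its steps after 3 min and came close to 2-fold. EMI2 read 9.01 and 8.94 in the control and 11.50 and 11.43 at 3 min, and had risen by 2.49 ± 0.10 (adjusted p = 1.56e-19 by limma). Its arrays at 5 min, 11.69 and 11.44, overlapped those at 3 min. They were 12.11 and 11.91 at 10 min and 12.45 and 12.20 at 40 min, where the rise stood at 3.35 ± 0.10. Thus EMI2 was still at its highest after 40 min at 42 °C, the time at which most of its rise had gone at 37 °C.

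HXK2 read 14.22 and 14.18 in the 42 °C control, and 14.27 and 14.27 at 3 min. At 10 min it read 14.23 and 14.22, which overlapped the control, and at 40 min 14.13 and 14.09, just below it. The difference at 40 min was -0.09 ± 0.04, with a 95% interval of -0.18 to 0.0019 (limma's adjusted p = 0.0625). On the same arrays HXK1 relative to HXK2 had changed by 5.01 ± 0.02 (SD, n = 2) at 3 min and 6.43 ± 0.07 at 40 min, and GLK1 relative to HXK2 by 3.61 ± 0.05 and 5.13 ± 0.02. EMI2 minus GLK1 differed from the control by -1.19 ± 0.09 at 3 min and by -1.70 ± 0.12 at 40 min. The 2 ends of ACT1 lay 1.33 ± 0.07 (SD, n = 2) apart at 40 min and 0.75 ± 0.09 apart in the control. In the same comparison all 6 a-cell markers fell, with a median of -2.46, and of the 4 alpha-cell markers STE3 rose by 2.60 ± 0.15. The part of these in the values of the 4 genes was not tested.

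The comparison of temperatures depends on the unheated cells. The change at 42 °C exceeded that at 37 °C at the same time for HXK1, by 2.50 ± 0.13 at 3 min, 1.71 ± 0.13 at 5 min, 1.70 ± 0.13 at 10 min and 2.96 ± 0.13 at 40 min, each past the test (limma's adjusted p = 5.25e-12 or lower). Without 1 or the other control array of the 42 °C series the HXK1 difference at 10 min was 1.45 or 1.94. For GLK1 the differences were 1.80 ± 0.13, 1.43 ± 0.13, 1.05 ± 0.13 and 2.64 ± 0.13, also past the test at all 4 times. The GLK1 call at 10 min was lost without the second control array of the 42 °C series (0.94), after quantile normalisation (0.87) and with all 45 arrays in the fit (limma's adjusted p = 0.131). EMI2 differed by 1.40 ± 0.13 at 3 min and 2.52 ± 0.13 at 40 min, which passed, and by 0.48 ± 0.13 and 0.05 ± 0.13 at 5 and 10 min, which did not. For HXK2 the difference at 40 min was 0.35 ± 0.06 and stayed below 2-fold. Of all genes 2.4% had the higher response at 42 °C at 3 min, 2.92% at 5 min, 8.96% at 10 min and 19.7% at 40 min.

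The unheated cells of the 2 series did not read alike for these genes. The control of the 42 °C series minus that of the 37 °C series was -1.75 for HXK1, -1.51 for GLK1 and -0.91 for EMI2, with no overlap of arrays, and 0.12 for HXK2. Batch, culture and normalisation cannot be told apart in these differences. Without regard to the controls, HXK1 at 42 minus 37 °C was 0.75 at 3 min, -0.044 at 5 min, -0.054 at 10 min and 1.21 at 40 min. GLK1 gave 0.29, -0.084, -0.46 and 1.13, and EMI2 0.48, -0.43, -0.86 and 1.61. At 5 and 10 min the larger responses at 42 °C thus came with equal or lower readings at 42 °C, and only at 3 and 40 min did the 3 genes also read higher there. These levels come from arrays with separate distributions and carry no test.

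At 46 °C HXK1 read 13.97 and 13.78 after 10 min and 13.85 and 13.52 after 30 min. GLK1 read 13.73 and 13.22, then 13.38 and 13.39, and EMI2 11.84 and 11.76, then 11.90 and 11.46. For these 3 genes the 2 times overlapped. HXK2 read 13.84 and 13.88, then 13.79 and 13.82. From 10 to 30 min 0 of the 4 genes passed limma's test, and 0 had an unadjusted p under 0.05, with differences of -0.19 ± 0.10 for HXK1, -0.05 ± 0.04 for HXK2, -0.09 ± 0.10 for GLK1 and -0.12 ± 0.10 for EMI2. In the same comparison 0.239% of all genes, or 13, fell and 0% rose. That count was 4 and 68 without the first or second array of 10 min, 58 without the first of 30 min, and 0 in a limma fit of these 4 arrays alone. Beside the 2 unheated controls, HXK1 at 10 min stood 3.97 and 5.72 higher, GLK1 2.27 and 3.78 higher and EMI2 1.91 and 2.82 higher (37 °C and 42 °C control in turn). HXK2 stood at -0.22 and -0.34. These arrays were of a batch and a distribution of their own, so batch and temperature cannot be told apart, and after centring of each array on its median the HXK2 values became 0.14 and -0.01.

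Genes of the pathways around glucose 6-phosphate were followed beside the 4 members, in lists chosen with earlier results of these data known. The list of branches from glucose 6-phosphate other than glycolysis had 9 measured genes. Among them UGP1, TPS2, TPS3 and TSL1 are later steps or subunits and not enzymes that use glucose 6-phosphate itself. Of the 9, 6 rose after 15 min at 37 °C and 8 after 40 min at 42 °C, and 0 fell. Of all genes 15.3% and 23.3% rose. The medians of the 9 were 1.78 and 3.60, against 0.06 and 0.01 over all genes. PGM2, the main phosphoglucomutase, which leads glucose 6-phosphate towards glycogen and trehalose, rose by 5.07 ± 0.10 and 5.44 ± 0.12. TPS1, trehalose 6-phosphate synthase, rose by 2.76 ± 0.06 and 3.60 ± 0.08, and TSL1, a regulatory subunit of the same complex, by 4.78 ± 0.07 and 7.00 ± 0.09. ZWF1, which opens the pentose phosphate pathway, changed by 0.97 ± 0.08 at 37 °C and rose by 1.86 ± 0.09 at 42 °C. PGM1, the minor phosphoglucomutase, changed by -0.50 ± 0.07 and -0.34 ± 0.08. UGP1, which makes UDP-glucose, rose by 1.72 ± 0.06 and 1.91 ± 0.07. TPS2, the trehalose 6-phosphate phosphatase, rose by 2.96 ± 0.09 and 3.78 ± 0.11, and TPS3, a further subunit of the trehalose complex, by 1.78 ± 0.06 and 1.88 ± 0.07. INO1, inositol 3-phosphate synthase, changed by 0.69 ± 0.08 at 37 °C and rose by 4.07 ± 0.10 at 42 °C.

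**Figure D4:**
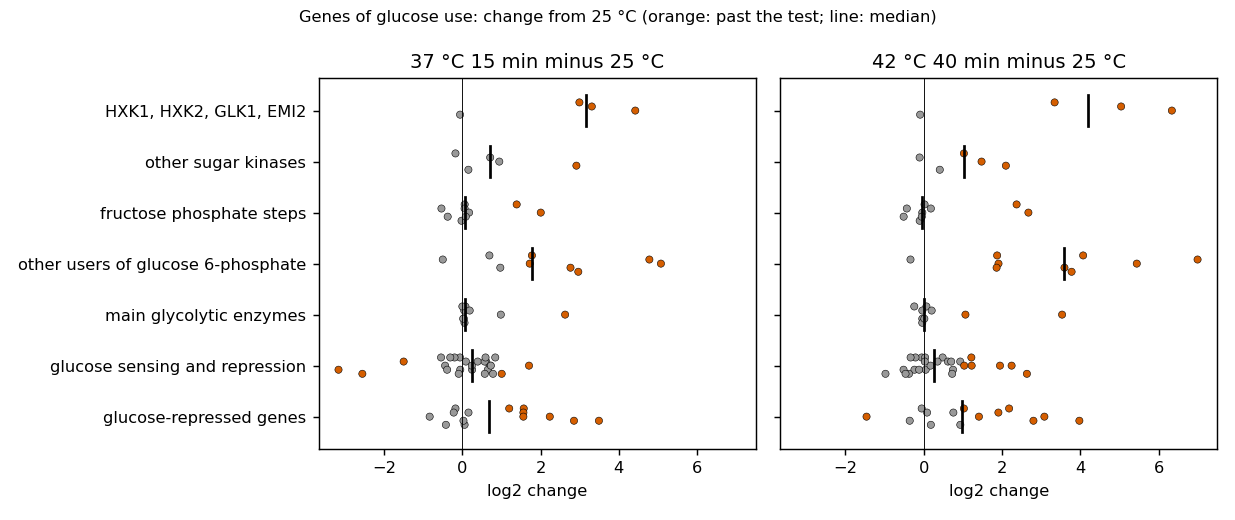
Log2 change of each measured gene of 7 lists at 37 °C 15 min (left) and 42 °C 40 min (right) against the control of its series, with genes past the test in orange and the list's median as a line. The list labelled other users of glucose 6-phosphate, which includes later steps and subunits, had medians of 1.78 and 3.60. Most genes of the fructose phosphate steps and of lower glycolysis lay near 0.

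In the steps that follow through fructose phosphates 2 of 9 genes rose at either time, and 0 fell, a share near the 15.3% and 23.3% of all genes that rose. Both act on fructose 2,6-bisphosphate, the activator of phosphofructokinase: PFK26, which makes it, rose by 1.39 ± 0.06 and 2.37 ± 0.08, and FBP26, which removes it, by 2.00 ± 0.06 and 2.68 ± 0.08. PFK27, the other enzyme that makes it, changed the other way, by -0.53 ± 0.12 and -0.43 ± 0.15, both short of 2-fold. Of the main pathway, PGI1 changed by 0.17 ± 0.04 and -0.03 ± 0.05. The phosphofructokinase subunit gene PFK1 changed by -0.37 ± 0.04 and -0.51 ± 0.05, and its partner PFK2 by -0.02 ± 0.04 and -0.10 ± 0.05. FBA1, the aldolase, changed by 0.06 ± 0.03 and 0.02 ± 0.04, and TPI1, triose phosphate isomerase, by 0.09 ± 0.03 and -0.05 ± 0.04. FBP1, of gluconeogenesis, changed by 0.06 ± 0.09 and 0.19 ± 0.11, from control readings near the signal of probe sets without a target. Of 9 further glycolytic genes 1 rose at 37 °C and 2 at 42 °C, again near the share of all genes, with medians of 0.06 and 0.02. The other 5, CDC19, GPM1, PGK1, PDC1 and ADH1, changed by 0.0024 to 0.19 at 37 °C and by -0.24 to 0.21 at 42 °C. TDH1, the minor glyceraldehyde-3-phosphate dehydrogenase, rose by 2.63 ± 0.11 and 3.54 ± 0.14, where TDH3, the main form, changed by 0.02 ± 0.03 and 0.02 ± 0.04. ENO1, an enolase, changed by 0.98 ± 0.04 and rose by 1.07 ± 0.05, where its paralogue ENO2 changed by 0.04 ± 0.03 and -0.03 ± 0.04. These main forms were among the brightest genes of the arrays, so small changes of them may be understated. Among the other sugar kinases XKS1, which phosphorylates xylulose, rose by 2.91 ± 0.08 and 2.10 ± 0.09. RBK1, a ribokinase, changed by 0.95 ± 0.07 at 37 °C and rose by 1.48 ± 0.09 at 42 °C, and GAL1, the galactokinase, changed by -0.17 ± 0.08 and rose by 1.03 ± 0.10. GAL3 and YDR109C changed by 0.71 ± 0.11 and 0.16 ± 0.07 at 37 °C and by -0.10 ± 0.13 and 0.41 ± 0.08 at 42 °C. The GAL3 controls read 6.06 and 5.84, near the signal of probe sets without a target. In all 1 and 3 of the 5 rose, where 15.3% and 23.3% of all genes did.

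Of 26 genes of glucose sensing and repression, 2 rose and 3 fell after 15 min at 37 °C, and 6 rose and 0 fell after 40 min at 42 °C. Of all genes 15.3% rose and 14.3% fell in the first comparison, and 23.3% rose and 22.4% fell in the second, so the share that rose at 42 °C was that of all genes. MIG1, the repressor that works with the HXK2 product, changed by 0.24 ± 0.09 and 0.18 ± 0.11, though it rose by 1.05 ± 0.11 after 3 min at 42 °C. Its glucose-induced relatives MIG2 and MIG3 fell by 3.16 ± 0.17 and 2.55 ± 0.12 at 37 °C. At 42 °C they changed by -0.23 ± 0.21 and -0.97 ± 0.14, from a control in which MIG2 read 7.99 as against 10.93 in the 37 °C control. STD1, a regulator of hexose transporter genes, fell by 1.497 ± 0.07 at 37 °C. SIP2, a subunit of the Snf1 kinase, rose by 1.70 ± 0.07 and 1.04 ± 0.09, and GPA2, the G protein subunit of the glucose receptor Gpr1, by 1.01 ± 0.08 and 2.64 ± 0.10. REG2, a subunit of the phosphatase that opposes Snf1, rose by 2.25 ± 0.13 at 42 °C, and TOS3 and GAL83 by 1.95 ± 0.11 and 1.23 ± 0.06.

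Of 14 measured genes known to be repressed by glucose, 7 rose and 0 fell after 15 min at 37 °C, and 7 rose and 1, HXT4, fell after 40 min at 42 °C, with medians of 0.68 and 0.98. Of all genes 15.3% rose and 14.3% fell at the first time, and 23.3% rose and 22.4% fell at the second. The regulator genes CAT8 and ADR1 rose by 2.85 ± 0.15 and 2.23 ± 0.11 at 37 °C and by 2.80 ± 0.18 and 3.08 ± 0.14 at 42 °C. The CAT8 controls read 6.04 and 6.31, not far above the signal of probe sets without a target. HXT7, a high-affinity hexose transporter, rose by 3.49 ± 0.08 and 3.98 ± 0.10, though its near-identical neighbour HXT6 may share its probes. JEN1 rose by 1.57 ± 0.12 and 2.18 ± 0.14. SUC2, the invertase gene, changed by 0.03 ± 0.08 and -0.35 ± 0.10, and HXT2 by -0.22 ± 0.09 and 0.09 ± 0.11. The list was not raised in the same way at all times. After 40 min at 37 °C, 3 of the 14 genes rose and 3 fell, where 7.08% of all genes rose and 7.21% fell. Those that fell then included HXT2, with a change of -1.49 ± 0.09, and HXT4, with -2.34 ± 0.09.

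Over the 12 comparisons of 37 and 42 °C with their controls, the genes whose changes lay closest to those of each member were named by the root mean square difference in log2 change. For HXK1 these were HSP78 (0.48, Pearson's r = 0.96 across the 12 comparisons), TSL1 (0.50, r = 0.99), GAD1 (0.77), GPH1 (0.80) and PHM8 (0.82). GLK1 lay closest to PNC1 (0.36, r = 0.99), STF2 (0.41), HXT7 (0.44), GSY2 (0.48) and HSP104 (0.50). EMI2 lay closest to YER079W (0.27, r = 0.98), PNS1 (0.28), MET28 (0.32), TPS1 (0.33) and FRT2 (0.34). For HXK2 the closest were YJR084W (0.07, r = 0.97), ECM14 (0.08), SEC20 (0.09), SPC42 (0.10) and GND1 (0.10), all of them genes that changed little. HXK1 and GLK1 differed from each other by 1.26 (r = 0.98), GLK1 and EMI2 by 0.99 (r = 0.89) and HXK1 and HXK2 by 4.41 (r = 0.39). The comparisons within a series share their control arrays, so these values describe likeness of course and carry no test.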

How the data were processed

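The authors deposited log2 intensities, 1 per probe set and array (5900 probe sets, 45 arrays), and the submitters' processing notes name RMA and affy as the tools behind them. Their versions are not given in those notes. RMA corrects background, normalises arrays to each other and summarises probes, so overall shifts in messenger RNA per cell are removed. Of the probe sets, 5498 had 1 gene symbol and 0 several; all matched the R64 annotation by gene identifier. For 47 genes with several probe sets the brightest was used, leaving 5449 genes.

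A mean per group was fitted to 41 arrays (16 groups, 25 residual degrees of freedom) with limma 3.58.1 in R 4.3.3 (lmFit, eBayes). Tests were two-sided over 26 comparisons, adjusted over all genes within each, with calls made where the adjusted p was below 0.05 and the change 1 or more on the log2 scale. The tests are unpaired. The procedure was tested on simulated data. The number of arrays limits precision.

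Named genes were the members, up to 4 called members of each list per time (37 °C 15 min, 42 °C 40 min), the genes of the lists with at most 10 genes, the 5 genes most like each member, the heat markers HSP26 and HSP12, and the check genes. Other members of a list stand beside these only for contrast and were chosen after their values were seen: these are MIG1, SUC2, HXT2 and HXT4. Members and lists were chosen with earlier results of these data known. Of 95 list entries 90 were measured. Alternatives covered the arrays in the fit, prior variance, rescaling, a floor filter, probe set means, a replicate block, array weights, the fold limit, the control and each array left out.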

Additional observations from a re-analysis of the deposited data

Results flagged for a closer look

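The response at 42 °C was larger than that at 37 °C by the test of the difference itself in 10 cases (limma, adjusted over all genes). For HXK1 the difference on the log2 scale was 2.50 at 3 min, 1.71 at 5 min, 1.70 at 10 min and 2.96 at 40 min. For GLK1 it was 1.80, 1.43, 1.05 and 2.64 at the same times, and for EMI2 1.40 at 3 min and 2.52 at 40 min. Unheated cells of the 42 °C series minus those of the 37 °C series gave -1.75, -1.51 and -0.91 for HXK1, GLK1 and EMI2, and batch, culture and normalisation cannot be told apart in those.

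The 4 arrays labelled 42 °C 1 and 80 min, used in no comparison, fell into unlike pairs within each label. HXK1 read 10.59 and 14.15 on the arrays labelled 1 min, and 14.19 and 11.27 on those labelled 80 min. GLK1 read 12.69 and 14.80, then 14.84 and 13.12, and EMI2 read 10.23 and 12.01, then 12.05 and 10.30. HXK2 read 14.29 and 14.23, then 14.29 and 14.27. The lowest array of each gene was thus 10.59 for HXK1, 14.23 for HXK2, 12.69 for GLK1 and 10.23 for EMI2, each above the mean of the 42 °C control. On the 2 arrays with the lower HXK1 values the heat shock gene HSP26 read 6.14 and 6.403, which is -0.09 and 0.17 from that control, while HXK1 stood 2.44 and 3.11, GLK1 3.00 and 3.43 and EMI2 1.25 and 1.32 above it. HSP12, the other heat marker, read 7.36 and 7.68 on those 2 arrays, which is -0.62 and -0.31 from the control. On the other 2 arrays HSP26 read 15.15 and 15.18, and HSP12 read 15.10 and 15.09.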

How the results depend on the processing

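Of 1816 alternative values for the 104 tested member changes, 1760 kept their side of the threshold. Among these, differences that were not past the test could still turn sign. The cause of the other changes was not tested except where the setting itself gives it. With both 25 °C controls left out, the 42 minus 37 °C difference was that of the levels, across sets of arrays. It turned to -0.044 and -0.054 for HXK1 and -0.084 and -0.46 for GLK1 at 5 and 10 min. For EMI2, not past the test at those times, it turned to -0.43 and -0.86. At 3 min it fell below 2-fold at 0.75 for HXK1, 0.29 for GLK1 and 0.48 for EMI2. Against the other 25 °C control, which crosses sets of arrays, the 37 °C changes at 1 min passed at 2.50 for HXK1, 2.08 for GLK1 and 1.04 for EMI2. So did EMI2 at 40 min (1.74) and 80 min (1.59). With all 45 arrays in the fit, whose discordant replicates widen the error, HXK1 no longer passed for 5 minus 3 min (1.18) and 40 minus 15 min (-1.04) at 37 °C, nor for the 42 minus 37 °C difference at 3, 5 and 10 min (2.50, 1.71 and 1.70), nor GLK1 at 5 and 10 min (1.43 and 1.05), nor EMI2 at 3 min (1.40). After quantile normalisation the GLK1 difference at 10 min was 0.87 and no longer passed, and EMI2 3 minus 1 min at 37 °C passed at 1.00.

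Without the 2-fold minimum, 29 further changes passed. Against 25 °C these were HXK1 0.75 and GLK1 0.57 at 1 min, EMI2 0.83 at 40 and 0.67 at 80 min, and HXK2 -0.10, -0.44 and -0.20 at 5, 40 and 80 min, all at 37 °C. Of the steps at 37 °C they were HXK1 0.24 and 0.27 (5 to 7 and 7 to 10 min), GLK1 0.56, 0.26, 0.37 and 0.23 (3 to 15 min) and -0.90 (15 to 40 min), HXK2 -0.38 (15 to 40 min) and EMI2 0.96, 0.46 and 0.42 (1 to 3, 5 to 7 and 7 to 10 min). At 42 °C they were HXK1 0.39, 0.49 and 0.38 (3 to 40 min), GLK1 0.26 and 0.92, EMI2 0.45 and 0.31 and HXK2 -0.11 (steps from 5 min on). The 42 minus 37 °C differences were 0.18 and 0.35 for HXK2 at 5 and 40 min and 0.48 for EMI2 at 5 min.

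With each array left out in turn, EMI2 5 minus 3 min at 37 °C ranged from 0.98 to 1.05, HXK1 40 minus 15 min from -1.09 to -0.99 and the GLK1 42 minus 37 °C difference at 10 min from 0.94 to 1.16, each crossing the 2-fold limit. Counts of all genes past the test moved by over 1.5 times in 13 of 26 comparisons with all 45 arrays (13 to 759 genes became 1 to 449), in all 26 without the 2-fold minimum (13 to 2487 became 770 to 4742) and in 4 with the other control (13 to 629 became 217 to 978). At 46 °C the 13 genes became 0 in a fit of those arrays alone and 4 to 68 with an array left out.

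Same-numbered arrays correlated over 0.1 in 26 of 84 pairs in batch A863 and 4 of 20 in A927, so the numbers were not taken to pair them. In P230 (46 °C), with 2 arrays a group, same-numbered arrays correlated at 0.58, and with the block HXK1 from 10 to 30 min stayed at -0.19, below 2-fold, with limma's adjusted p = 0.0413. With the replicate number as a block no member call changed, and HXK1 rose by 4.42 at 37 °C 15 min and 6.34 at 42 °C 40 min.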
